A study of Mus musculus with 12 samples.

Results

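Fibroblasts with Cxcl5, Saa3 and Sfrp1 were followed through the mouse serum transfer-induced arthritis (STIA) data. They were chosen by the detection of transcripts in single cells: a cell with more than 500 and fewer than 5000 detected genes counted as a fibroblast-gated cell when at least 4 of the 7 genes Dcn, Lum, Gsn, Fbln1, Serpinf1, Pdgfra and Pdpn had at least 1 unique molecular identifier (UMI, the tag that marks one captured transcript), and as a member when at least 4 of the 6 genes Cxcl5, Saa3, Sfrp1, Chl1, Pcsk5 and Aqp2 were detected as well. The rule found 1144 members among 16430 fibroblast-gated cells, 20213 cells within the gene limits and 21042 deposited cells. These 13 genes chose the members, so their levels in members are descriptions and carry no test.

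In STIA, serum of arthritic K/BxN mice is injected into healthy mice and starts an acute joint inflammation that later resolves. The 12 libraries held live CD45- synovial cells, that is, cells sorted without the common leukocyte surface protein, from male wild type C57BL/6 mice of 8 to 10 weeks. Each library pooled 3 animals, and 3 libraries carried each stage label: untreated rest at day 0 or, after an intravenous injection of 100 µl of K/BxN serum, peak between days 7 and 9, resolving on day 15, or resolved, taken on day 22. Transcripts were read from their 3′ ends, UMI totals per library ran from 7969872 to 17047322, and the replicates of one stage are separate libraries by their labels, so p-values measure the spread between pooled libraries.

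Synovial fibroblasts form the lining layer of the joint, which secretes lubricin and hyaluronan, and the sublining tissue around vessels. In arthritis they also secrete chemokines, acute-phase proteins and matrix-degrading enzymes. CXCL5 is a chemokine that attracts neutrophils through CXCR2, SAA3 is an acute-phase apolipoprotein made outside the liver in mice, and SFRP1 is a secreted protein that binds Wnt ligands and blocks their signal. CHL1 is a cell adhesion molecule of the L1 family, PCSK5 is a convertase that cleaves precursor proteins, and AQP2 is a water channel best known from the kidney collecting duct.

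The genes of the rule are spread over the genome. On mm10 (GRCm38) and its GENCODE annotation, Cxcl5 spans chr5:90759360-90761624, Saa3 chr7:46711998-46715700, Sfrp1 chr8:23411502-23449632, Chl1 chr6:103510586-103750211, Pcsk5 chr19:17432319-17837632 and Aqp2 chr15:99579055-99584547. The 250 bases before the RefSeq start site of Saa3 (GRCm38.p6, chr7:46715677-46715926, minus strand, read 5′ to 3′) are shown because Saa3 had the largest ratio of members to other fibroblast-gated cells among the 6 genes, with the only match to a searched motif in capitals.

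Saa3: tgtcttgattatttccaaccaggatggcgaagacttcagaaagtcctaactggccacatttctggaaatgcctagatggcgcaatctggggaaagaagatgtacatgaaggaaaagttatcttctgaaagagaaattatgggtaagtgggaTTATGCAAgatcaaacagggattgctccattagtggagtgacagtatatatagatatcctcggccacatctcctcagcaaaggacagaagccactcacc

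The capitals mark a match to TTGCNNAA, a C/EBP motif, on the reverse strand, which starts 99 bases before the start site. The motifs searched on both strands of 300 bases per gene were GGGANNTTC (an NF-kB motif), TTGCNNAA and TATAAA, and they occurred in 3.94%, 10.8% and 13.6% of 32851 promoters. The same windows of Chl1, Pcsk5 and Aqp2 held 0 matches, and those of Ptx3 and Slpi, genes described below, held the C/EBP match TTGTGCAA starting 57 and TTGAGCAA starting 241 bases before the start site. The window of Tnfsf11 held TTTATA, the reverse complement of TATAAA, starting 32 bases before the start site. Cxcl5, Sfrp1, Hp and Kng2 were not analysed here for motifs. A match says only that these letters are in the window.

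The libraries stood apart in a way their stage labels do not give. Each library has its own number at the end of its cell barcodes, 1 to 12, and the members lay in runs of 3 consecutive suffixes: suffixes 4-6 are resolved replicate 1, rest replicate 2 and peak replicate 2, and suffixes 7-9 are resolving replicate 2, resolved replicate 2 and rest replicate 3. The stage labels are used as deposited, and whether each label belongs to its library was not tested, so values by stage depend on it. What a run of suffixes stands for is not given in the sources used here, and no cell barcode, read without its suffix, was shared by libraries (0 shared).

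Members made up 33.4% of fibroblast-gated cells in resolved replicate 1 (366 cells, Wilson 95% interval 30.7 to 36.3), 21.7% in rest replicate 2 (329 cells, 19.7 to 23.9) and 23.5% in peak replicate 2 (326 cells, 21.3 to 25.8). They made up 2.57% in resolving replicate 2 (38 cells, 1.88 to 3.51), 2.41% in resolved replicate 2 (57 cells, 1.86 to 3.11) and 2.61% in rest replicate 3 (27 cells, 1.80 to 3.78). Resolving replicate 1 held 1 member (0.104%, 0.0184 to 0.59), and the other 5 libraries held 0, which allows shares of up to 0.156% to 0.281% by 3 counts. Libraries of one stage label therefore ranged widely, while libraries of one run lay close together. Intervals and limits cover counting error only.

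By stage label, the mean share was 8.12% ± 11.9 (SD, n = 3) at rest, 7.82% ± 13.6 at peak, 0.892% ± 1.46 in resolving and 11.9% ± 18.6 in resolved, and the libraries of every stage overlapped those of every other. An exact permutation test over the 12 libraries gave p = 0.78 for a difference between stages, and exact two-sided tests against rest gave p = 1, 0.5 and 0.9, where 3 libraries against 3 cannot go below 0.1. These means and tests take the stage labels as deposited, and would change if a label were misassigned, which was not tested. By run, the means were 0.0348%, 26.2% ± 6.31, 2.53% ± 0.11 and 0% for suffixes 1-3, 4-6, 7-9 and 10-12, with exact permutation p = 0.000649, where the smallest possible was 6.49e-05. The runs were known from earlier results of these data, so that p is not independent evidence.

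**Figure D1:**
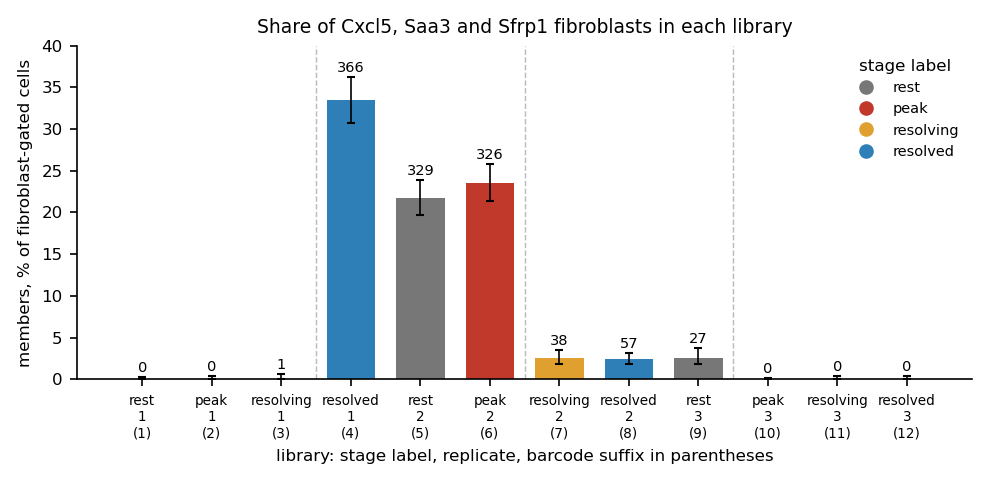
Members as a percentage of fibroblast-gated cells (y axis) in each of the 12 libraries (x axis, ordered by barcode suffix), with Wilson 95% intervals, the number of members above each bar and colours for the stage labels. The 3 bars of suffixes 4-6 stand at 21.7% to 33.4%, those of suffixes 7-9 at 2.41% to 2.61%, and the rest at or near 0.

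The rule depends on depth, since a deeper cell shows more genes. Members had a median of 12189 UMIs per cell and the other fibroblast-gated cells 5683.5, although deposited cells had the same median in every library, 5358 UMIs. After every cell was thinned to 2000 UMIs before the rule, the mean share was 7.01% ± 2.99 in suffixes 4-6 and 0.443% ± 0.267 in suffixes 7-9, and 0% in the other runs. Suffixes 4-6 still had the highest mean share and suffixes 7-9 the next, and both shares were lower than before thinning.

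Of the members, 531 had 4 of the 6 genes detected, 453 had 5 and 160 had all 6, and 729 fibroblast-gated cells with 3 lay just outside the rule. Levels on either side are given within suffixes 4-6, so that the runs do not mix, as CPM (UMIs of a gene when all genes are scaled to sum to 1000000). Just outside, 416 cells with 3 genes held 366 CPM of Hp, 35.3 of Tnfsf11, 205 of Ptx3 and 1522 of Gsn, with a median of 10194 UMIs per cell. Just inside, 453 cells with 4 genes held 538 CPM of Hp, 68.2 of Tnfsf11, 385 of Ptx3 and 1186 of Gsn, with a median of 11871 UMIs. Hp was at 1583 CPM in cells with all 6 genes and 57.4 CPM in cells with 0, with levels in between at 1 to 5 genes, and the median UMIs per cell were 13268 and 3339.

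**Figure D2:**
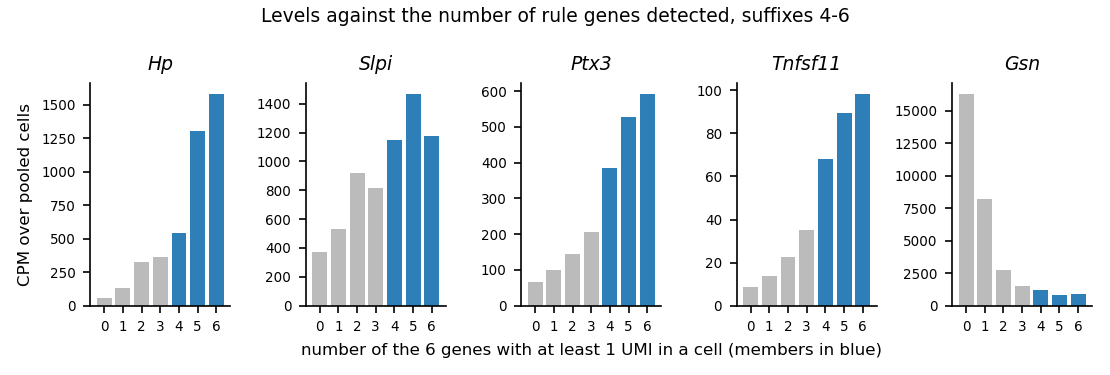
Pooled level in CPM (y axes) of Hp, Slpi, Ptx3, Tnfsf11 and Gsn in fibroblast-gated cells of suffixes 4-6 grouped by how many of the 6 genes were detected (x axes, members in blue). Hp, Ptx3 and Tnfsf11 stand highest at 6 genes, Slpi at 5, and Gsn, a gene of the fibroblast gate, at 0. Slpi does not rise at every step, with 920 CPM at 2 genes, 815 at 3, 1470 at 5 and 1174 at 6. The bars at 3 and 4 genes show cells just outside and inside the rule.

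Over all fibroblast-gated cells, members or not, the 6 genes followed the same runs. Cxcl5 averaged 1.12, 973.8, 117 and 7.79 CPM in suffixes 1-3, 4-6, 7-9 and 10-12, and Sfrp1 22.6, 278, 67.0 and 21.7 CPM. Saa3 averaged 45.5, 796, 615 and 25.1 CPM, so that suffixes 7-9 lay nearer to 4-6 for this gene than for Cxcl5. Chl1 averaged 8.77, 131, 22.4 and 5.01 CPM, Pcsk5 27.4, 213, 60.6 and 29.6 CPM, and Aqp2 8.66, 54.4, 36.1 and 7.98 CPM. For each of the 6 genes the lowest library of suffixes 4-6 stood above every library of suffixes 1-3 and 10-12. The same genes chose the members, so these levels describe the runs and are not separate evidence beside the shares.

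**Figure D3:**
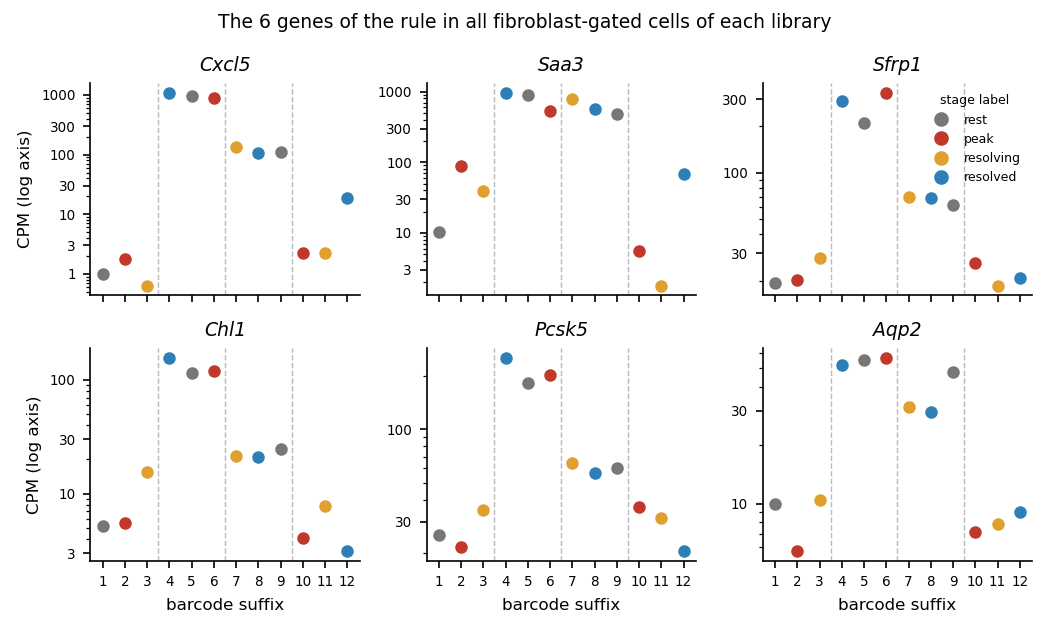
Level in CPM (log axes) of the 6 genes in all fibroblast-gated cells of each library, against its barcode suffix, coloured by stage label, with dashed lines between runs of 3 suffixes. Points of one colour lie far apart, while the 3 libraries of a run lie together for most genes.

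Among members, a UMI was found for Pcsk5 in 95.6%, Sfrp1 in 90.5%, Cxcl5 in 88.3%, Chl1 in 87.8%, Saa3 in 64.5% and Aqp2 in 40.9%. Other fibroblast-gated cells of suffixes 4-6 held a UMI of Cxcl5 in 20.2% and of Saa3 in 12.5%, and 321 endothelial-marker cells of those libraries, with a median of 3885 UMIs, held Cxcl5 in 6.23% and Saa3 in 7.17%. Fibroblast-gated cells of suffixes 1-3 held Cxcl5 in 0.55%. The detection shares given here are at unequal depth. For Chl1 the endothelial share was 0.623% against 18.4% in the other fibroblast-gated cells, and for Pcsk5 3.43% against 27.7%. Endothelial-marker cells serve as the background for free RNA, except for Pcsk5, whose mean there was 13.5, 9.44, 7.47 and 5.62 CPM in suffixes 1-3, 4-6, 7-9 and 10-12 and did not follow the fibroblast levels.

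Each of the 6 genes was found more often in cells that held the others, by differing margins. In suffixes 4-6, Cxcl5 was detected in 77.8% of fibroblast-gated cells with at least 3 of the other 5 genes, in 21.4% of those with fewer, and in 41.4% of those with fewer when matched in UMIs. For Sfrp1 the same shares were 80.1%, 22.3% and 38.6%. In suffixes 7-9 the shares for Cxcl5 were 24.01%, 7.43% and 10.9%, and for Sfrp1 58.3%, 18.9% and 25.5%. Aqp2 had the smallest margin there, at 21.9%, 10.2% and 15.4%, and Saa3 had 31.5%, 12.01% and 15.9%. The 6 genes are those of the rule, which was chosen with earlier results of these data known. Their shares are a description and not independent evidence.

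Members also lay near each other when the 13 genes of the rule were left out. Among the 20 nearest cells of a member by its other variable genes, 81.6% were members in resolved replicate 1, 68.6% in rest replicate 2 and 71.8% in peak replicate 2, against 40.6%, 29.7% and 27.1% around other fibroblast-gated cells matched in UMIs. In resolving replicate 2, resolved replicate 2 and rest replicate 3 the shares were 26.3%, 10.7% and 10.4%, against 3.70%, 2.68% and 4.79%. Members of suffixes 7-9 were fewer, and so were the members among their neighbours, and these shares have no test.

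The label of fibroblast was checked against markers of other cell classes in the 6 libraries with at least 10 members. The 7 fibroblast genes of the gate summed to 11410 CPM in members and 22980 CPM in the other fibroblast-gated cells. Lining markers (Prg4, Clic5, Tspan15, Htra4, Itga6 and Hbegf) summed to 1884 ± 824 CPM in members and 6578 ± 2812 CPM in the others, and all 6 were lower in members in 6 of 6 libraries. Sublining markers, such as Ly6a and Cd34, summed to 1891 ± 514 and 3104 ± 334 CPM. At least 4 of 7 sublining markers were found in 695 members (60.8%) and in 46.1% of the other fibroblast-gated cells of those libraries, and at least 3 lining markers in 20 members (1.75%) and 6.56% of the others, at unequal depth.

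Markers of other cell classes were low in members with some exceptions. Osteoblast markers summed to 45.1 CPM in members against 1444 CPM in the others, vascular endothelial markers to 28.1 against 124, lymphatic endothelial markers to 2.87 against 13.2, and immune markers to 21.1 against 156, with Ptprc at 0.0405 CPM and Cd3e at 0. Chondrocyte markers summed to 1148 against 2312 CPM, of which Comp made 815 CPM in members, and tenocyte markers to 1893 against 3005 CPM, of which Thbs4 made 1057 CPM. Acan was at 188 CPM in members and 149 in the others and Sox9 at 103 and 98 CPM, while Col2a1, which defines cartilage, was at 13.4 and 442 CPM. Erythroid markers summed to 564 against 1288 CPM, pericyte and smooth muscle markers to 165 against 375, Schwann markers to 17.4 against 37.4, skeletal muscle markers to 13.9 against 67.4 with Myf5 and Myog at 0, and proliferation markers to 313 against 257. At least 3 chondrocyte markers were found in 43.1% of members and at least 3 erythroid markers in 50.2%, against 17.4% and 17.9% of the others, at unequal depth. The doublet caller marked 56 kept cells (0.277%), 2 of them members, too few for a working call, so no doublets were removed, and 72 members (6.29%) had doublet scores in the top 6%. The part of these classes in the results was not tested, and 285 members (24.9%) had fewer than 3 markers of every other class.

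Beyond the rule, Hp, Tnfsf11, Ptx3 and Slpi were among the genes highest in members relative to other fibroblast-gated cells, and the osteoblast genes Bglap and Ibsp and the cartilage gene Col2a1 were among the lowest. In the 6 libraries, 33 of 2661 genes at 50 CPM or more (1.24%) were higher in members in every library with a mean ratio over 1 on the log2 scale, and 112 (4.21%) were lower in the same way. The counts depended on depth and on the cells compared with: 58 and 210 after thinning to 2000 UMIs, 49 lower against others matched in UMIs, and 65 higher against others without markers of another class. The ratio is the log2 of CPM + 1 in members over CPM + 1 in other fibroblast-gated cells of the same library, given as the mean ± SD of 6 libraries, and it has no test because measured values chose the members. Among the genes of the rule it was 3.06 ± 0.74 for Saa3, 2.81 ± 0.76 for Aqp2, 2.71 ± 0.56 for Sfrp1, 2.65 ± 0.81 for Cxcl5, 2.60 ± 0.99 for Chl1 and 2.02 ± 0.30 for Pcsk5. Saa3 was at 1561, 2052 and 1055 CPM in suffixes 4-6 and at 4574, 5954 and 4356 CPM in suffixes 7-9 in members, and Cxcl5 at 1685, 2105 and 1766 CPM in suffixes 4-6 and at 1234, 762 and 349 CPM in suffixes 7-9. Both genes chose the members, so these levels are a description, and nothing is read from their difference between the runs.

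Hp encodes haptoglobin, a plasma protein of the acute phase that binds free haemoglobin, and had the largest ratio outside the rule, 2.46 ± 0.30. It was at 820.1, 1367 and 927 CPM in suffixes 4-6 and at 2753, 2101 and 1963 CPM in suffixes 7-9 in members and at 155, 290.2 and 166 CPM in suffixes 4-6 and at 345, 477 and 339 CPM in suffixes 7-9 in the others, and the lowest member value stood above the highest of the others. A UMI of Hp was found in 68.4% of members, 20.6% and 27.0% of the others in suffixes 4-6 and 7-9, and 8.10% of endothelial-marker cells in suffixes 4-6. Tnfsf11, which encodes RANKL, the cytokine that drives osteoclast formation, followed with 2.16 ± 0.25. It was at 77.4, 85.1 and 83.8 CPM in suffixes 4-6 and at 79.1, 37.5 and 45.2 CPM in suffixes 7-9 in members and at 17.5, 19.6 and 20.8 CPM in suffixes 4-6 and at 11.6, 8.09 and 9.64 CPM in suffixes 7-9 in the others. Its member values did not overlap those of the others. A UMI of Tnfsf11 was found in 42.8% of members and 6.86% and 4.12% of the others in suffixes 4-6 and 7-9. These shares are at unequal depth, with medians of 12189 UMIs in members and 4662 and 5874 in those others. In cells thinned to 2000 UMIs, Hp was found in 46.5% of members and 10.9% and 16.8% of those others. Tnfsf11 was then found in 12.5%, 2.70% and 1.40%. Member shares pool the runs, and 89.2% of members lay in suffixes 4-6.

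Kng2, a kininogen gene, ranged from 40.1 to 72.8 CPM with a median of 58.2 in members and from 8.85 to 15.5 CPM with a median of 11.5 in the others. Ptx3, which encodes a pentraxin that binds microbes and complement, ranged from 200.2 to 536 CPM with a median of 441 and from 74.5 to 162 CPM with a median of 122, with a ratio of 1.71 ± 0.34. The ratio of Slpi, which encodes an inhibitor of leukocyte proteases, was 1.65 ± 0.97 and its level ranged from 715 to 1952 CPM with a median of 1532 in members and from 256 to 719 CPM with a median of 476 in the others. The Slpi ratio was uneven, from 0.28 to 2.80 over libraries. Kcnj15, a potassium channel gene, had 1.99 ± 0.65, and the other named higher genes had ratios from 1.10 for Cyp1b1 to 1.39 for Fbn2. They included the matrix and basement membrane genes Fbn2 and Nid2, the glutamate transporter gene Slc1a3, the adhesion gene Emb, the zinc transporter gene Slc39a14, the prostaglandin F receptor gene Ptgfr and Sfrp2, a relative of Sfrp1 that was also higher in 6 of 6 libraries at 1.15 ± 0.39. The others were Dram1, Cda, Nek6, Csgalnact1, Ddah1 and Arsi.

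The 10 genes named as lowest in members included bone and cartilage genes. Bglap2 and Bglap, which encode osteocalcin and are near-identical copies whose reads may be divided between them, had ratios of -6.59 ± 1.12 and -6.28 ± 1.53. Ostn and Ibsp, further osteoblast genes, had -5.27 ± 1.15 and -5.23 ± 0.85, and the cartilage collagen genes Col2a1, Col9a2 and Col9a3 -4.81 ± 0.55, -4.47 ± 1.65 and -4.28 ± 1.39. Coch, Angptl7 and Cilp2 had -4.40 ± 0.91, -4.27 ± 1.69 and -4.25 ± 2.36. The gate admitted cells with many osteoblast or chondrocyte markers, so members were also set against 3579 other fibroblast-gated cells of the 6 libraries with fewer than 3 markers of each other class, a comparison chosen after seeing the data. Members, with a median of 12186 UMIs in these libraries, were not held to that limit, which 285 of them (24.9%) met. The 3579 cells had a median of 4101 UMIs, and a deeper cell shows more markers. Against those cells the ratio of Hp was 2.19, of Tnfsf11 2.86, of Ptx3 1.17 and of Slpi 1.91, while that of Col2a1 turned to 0.51, a gene by which those cells had been chosen. The other low ratios were nearer to 0 against them: Bglap2 -3.78, Bglap -2.35, Ibsp -1.19, Ostn -2.46, Coch -1.95, Angptl7 -2.35, Cilp2 -0.59, Col9a2 -0.79 and Col9a3 -0.23. Of these, the osteoblast markers Bglap2, Bglap and Ibsp and the tenocyte marker Cilp2 had helped to choose those cells. Against 1022 others matched in UMIs the ratios were 2.68 for Hp, 2.02 for Tnfsf11, 2.18 for Ptx3 and 1.62 for Slpi. Against 3566 cells with sublining markers that were not members they were 2.78, 2.79, 1.36 and 2.73.

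**Figure D4:**
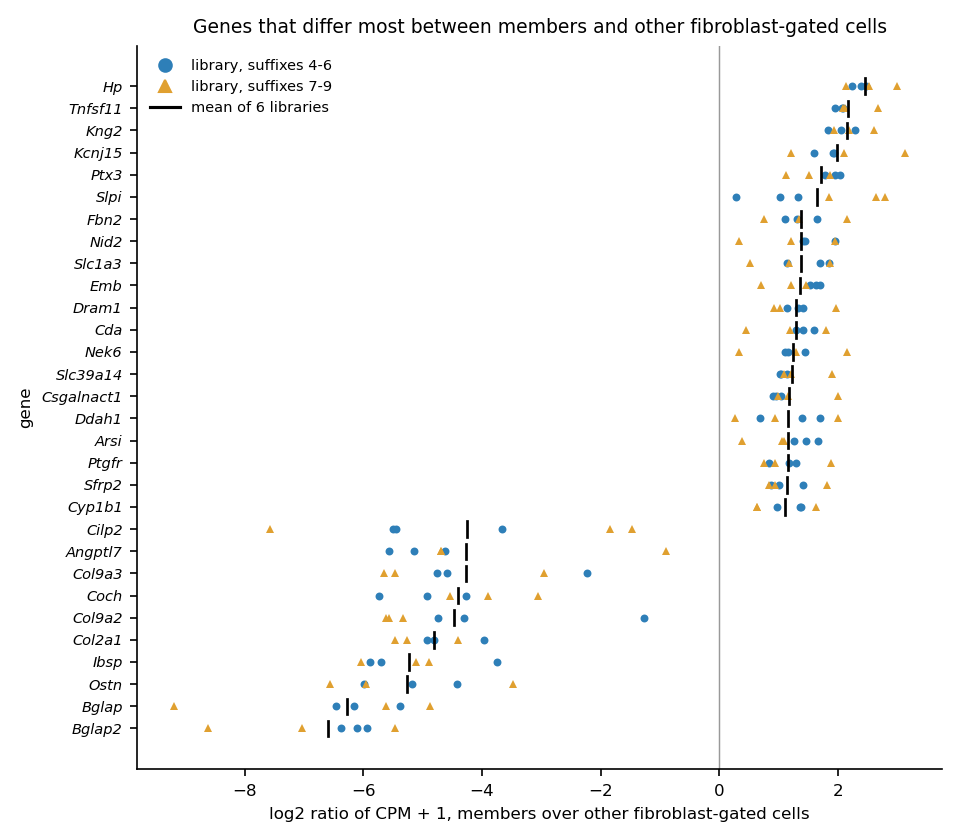
Log2 ratio of CPM + 1 in members over other fibroblast-gated cells (x axis) for the 20 genes higher and 10 genes lower in members by the naming rule, genes of the cell rule left out, with 1 point per library and a bar at the mean of 6 libraries. All points of Hp, Tnfsf11 and Kng2 lie above 1, and those of the 10 lower genes lie below 0.

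Of genes at 10 CPM or more, 8.82% were higher in members in all 6 libraries and 15.6% were lower, with a median ratio of -0.07, and the gene lists are read beside these shares. Of the neutrophil-attracting CXC chemokines other than Cxcl5, 3 reached 10 CPM, and Cxcl1 was higher in 6 of 6 libraries at 0.53 ± 0.30, where it ranged from 1690 to 3583 CPM with a median of 2662 in members and from 1243 to 2535 CPM with a median of 1874 in the others. Against other fibroblast-gated cells without markers of another class the Cxcl1 ratio was -0.02. Of 7 CC chemokines, 2 were higher in 6 of 6 libraries: Ccl7 at 1.06 ± 0.31 and Ccl2 at 0.87 ± 0.28, which both attract monocytes. Ccl20, a ligand of CCR6, was higher in 5 of 6 libraries and ranged from 0 to 152 CPM with a median of 87.8 in members and from 7.57 to 22.4 CPM with a median of 12.2 in the others. Of 10 acute-phase and defence proteins, Hp, Ptx3 and Slpi were higher in 6 and 1 was lower in 6, with a median ratio of 0.56.

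Il6st, which encodes the shared receptor chain gp130, was higher in 6 of 6 libraries at 0.76 ± 0.22, and Il1r1, the receptor of IL-1, at 1.08 ± 0.52. Il6 itself had 0.20 ± 0.48, with members higher in 4 of 6. Of 15 NF-kB subunits and feedback inhibitors, 0 were higher in 6 libraries and 2 were lower, with a median of -0.16. Of 8 secreted Wnt antagonists and R-spondins other than Sfrp1, Sfrp2 was the only one higher in 6 libraries, 4 were lower, and Sfrp4 had -2.17 ± 0.74. Aqp5, another water channel, was higher in 6 of 6 at 1.67 ± 1.07, and Aqp1, which red cells and endothelium also express, was lower in 6 of 6 at -1.62 ± 0.60.

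Matrix genes split. Of 10 metalloproteinases and inhibitors, 5 were higher in 6 libraries, among them Mmp3 (stromelysin) at 0.94 ± 0.58, Timp1 at 0.72 ± 0.31 and Mmp2 at 0.38 ± 0.11, and 2 were lower. Of 16 collagens, 6 were higher, Col1a1 at 0.35 ± 0.21, Col3a1 at 0.47 ± 0.16 and Col5a2 at 0.35 ± 0.17 included, and 5 were lower. Of 9 small leucine-rich proteoglycans, 6 were lower and Bgn was higher at 0.43 ± 0.15, with Fmod at -1.22 ± 0.55. Against others without markers of another class Fmod turned to 1.89, Kera to 1.80 and Aspn to 0.11, where Fmod and Kera had helped to choose those others. Prg4, which encodes lubricin, was lower in 6 of 6 at -1.87 ± 0.30. Of 15 glycolysis genes 3 were higher in 6 libraries and Hk2 and Pfkp were lower. Gapdh at 0.40 ± 0.26 and Pkm at 0.29 ± 0.15 were among the higher, but both turned lower against others matched in UMIs, at -0.15 and -0.25. Hk2, hexokinase 2, which the study examined, ranged from 61.4 to 170.3 CPM with a median of 117 in members and from 98.8 to 216 CPM with a median of 151 in the others, with a ratio of -0.49 ± 0.39 that turned to 0.02 against others matched in UMIs. Of 14 dissociation and immediate early genes 0 were higher and 3 were lower. Complement genes (1 higher and 2 lower of 8), lubricin and hyaluronan genes (2 and 2 of 7), IL-6 family genes (2 and 1 of 9), IL-1, IL-17 and TNF receptors and signals (2 and 0 of 8), L1 family genes and neuropilins (1 and 2 of 5) and proprotein convertases (0 and 1 of 3) gave further counts. Of the 10 genes the study names, 7 were higher in 6 libraries, among them Postn (periostin) at 0.56 ± 0.37, and Hk2 and Acta2 were lower. All but Hk2, with which the study began, were named from these samples and are not independent evidence. Acta2 turned from -0.84 to 0.47 against others without markers of another class, being itself one of the pericyte and smooth muscle markers.

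Members were then compared across the stage labels within the 6 libraries that held at least 10 of them. At peak, resolving and resolved against rest, the quasi-likelihood test of edgeR, adjusted by Benjamini-Hochberg, called 0 of 10617 genes each time (0.0%), with 98, 290 and 114 genes at an unadjusted p under 0.05. DESeq2 called 1, 0 and 1, and edgeR with the run of suffixes as a block called 9, 0 and 9. Peak and resolving had 1 library each here, assumed to vary like the others, and without the block their change cannot be told apart from that of the run. Rest and resolved each had 1 library in suffixes 4-6 and 1 in 7-9, so without the block differences between runs add to the spread. A count of 0 is therefore not read as a lack of change.

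Between the runs, members differed at many genes. Against suffixes 4-6, members of suffixes 7-9 had higher levels of 475 of 9327 genes (5.09%) and lower levels of 329 (3.53%), at an adjusted p below 0.05 and a change over 0.5 on the log2 scale, and 788 of these 804 genes did not overlap between the runs, against 31.25% of all genes tested (2915). Among the gene lists, 4 metalloproteinase and inhibitor genes, 4 collagens and 4 small proteoglycans were higher in suffixes 7-9, 8 glycolysis genes were lower, and the defence genes Hp and Lbp (lipopolysaccharide-binding protein) were higher while Lcn2 and Serpina3g were lower. All changes are log2 fold changes from edgeR's quasi-likelihood test with SE and Benjamini-Hochberg adjusted p, suffixes 7-9 over 4-6, with 3 libraries in each. Members of suffixes 7-9 numbered 38, 57 and 27 a library, with 1349545 UMIs in all against 13180334 in suffixes 4-6. Without resolved replicate 1, peak replicate 2, resolved replicate 2 or rest replicate 3 the count of 804 was 422, 520, 343 or 523, and it was 186 with members at 5 or more of the 6 genes. With the replicate number as a block (the replicate block) it was 207. Resolved replicate 1 and rest replicate 3 each stand alone in their number, so this block takes the change from the libraries numbered 2 only. Members lay nearer the threshold in suffixes 7-9, where 77 of 122 had 4 of the 6 genes, against 453 of 1021 in suffixes 4-6. Of 70 named genes that passed, 35 did not pass at 5 or more of the 6 genes and 34 did not when one or another library was left out. Those that passed in every alternative in which they were tested numbered 26, among them Kera, Pamr1, Ifit1, Reg3g, Adamts15, Apln, Hp, Mmp2, Timp1, Timp2, Col6a1, Col6a2, Fmod, Aspn, Dkk3, Rspo3, Aqp1, Dusp1, Hk2 and Acta2.

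The largest rises by the naming rule were in Kera, Ifit1, Pamr1, Reg3g and Adamts15. Kera, which encodes the corneal and tendon proteoglycan keratocan, was at 2.4, 8.39 and 4.86 CPM in suffixes 4-6 and at 41.6, 104 and 171 CPM in suffixes 7-9, a change of 4.29 (SE 0.45, adjusted p = 0.000209) by edgeR. Pamr1 was at 2.79, 3.21 and 11.4 CPM in suffixes 4-6 and at 66.6, 85.8 and 149 CPM in suffixes 7-9, and its edgeR change was 4.08 (SE 0.43, adjusted p = 0.000209). Ifit1, an interferon-induced gene, was at 4.19, 2.22 and 2.19 CPM in suffixes 4-6 and at 83.2, 57.2 and 22.6 CPM in suffixes 7-9, with a change of 4.29 (SE 0.42, adjusted p = 0.000118) by edgeR. For each of the 3 genes every library of suffixes 7-9 stood above every library of suffixes 4-6. Reg3g, a gene of an antimicrobial lectin, and Adamts15, a gene of a metalloproteinase, were lower in level, with 22 and 23 UMIs in suffixes 7-9 and 14 and 21 in suffixes 4-6, and changes of 3.92 and 3.37. In the other fibroblast-gated cells Kera, Pamr1 and Adamts15 rose between the runs too, by 1.91, 2.69 and 2.77. The tenocyte marker sum of members ranged from 947.5 to 1321 CPM in suffixes 4-6 and from 1823 to 3572 CPM in suffixes 7-9. Its part in the rise of Kera was not tested.

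The largest falls were in genes of low level. Slc38a4, an amino acid transporter gene, and Dio3, which encodes an enzyme that inactivates thyroid hormone, had 81 and 72 UMIs in members of suffixes 4-6 and 0 in suffixes 7-9, so that their pooled levels were at least 2.77-fold and 2.46-fold higher in suffixes 4-6, with the floor at 3 counts over the group. Apln, which encodes the peptide apelin, had 248 UMIs against 1, a ratio of 25.4 per UMI captured (exact 95% interval 4.52 to 1007, for counting error only). Gzmb had 93 against 1, a ratio of 9.52 (1.67 to 380.1), and Serpina3g 266 against 3, a ratio of 9.08 (3.07 to 44.3). Serpina3g belongs to a cluster of near-identical serpin genes whose reads may be shared. At 5 or more of the 6 genes Slc38a4, Dio3, Gzmb and Serpina3g did not pass, nor did they without rest replicate 3 or resolved replicate 2, while Apln passed in every alternative in which it was tested.

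Of the 10 acute-phase and defence genes tested, 2 rose and 2 fell: Hp by 1.14 (SE 0.21, adjusted p = 0.0055) and Lbp by 1.003 (SE 0.20, adjusted p = 0.0093) upward in edgeR, Lcn2 downward at -1.90, and Serpina3g with 3 UMIs left in suffixes 7-9. Lbp did not pass with the replicate block, nor Lcn2 without resolved replicate 2. The background was 5.09% higher and 3.53% lower of all genes tested, with a median change of -0.0011. Slpi and Ptx3 did not pass, at 0.38 (SE 0.24, adjusted p = 0.366) and -0.56 (SE 0.24, adjusted p = 0.17) in edgeR. Of 6 CC chemokines only Ccl20 passed, at -1.85 (SE 0.52, adjusted p = 0.0422) in edgeR, and it was at 119.8, 152 and 96.4 CPM in suffixes 4-6 and at 79.1, 14.3 and 0 CPM in suffixes 7-9. Ccl20 did not pass with DESeq2, without the highest doublet scores, against members of suffixes 4-6 matched in UMIs, or when any library but resolving replicate 2 was left out. Ccl2 and Ccl7 were at -0.52 and -0.36, and Cxcl1 at -0.41, and none of them passed. Clcf1, a cytokine gene of the IL-6 family, and Il1rl1, which encodes the IL-33 receptor, fell by 1.42 and 1.12, the only members of their lists to pass, of 9 and 10 tested. Neither passed with the replicate block. Clcf1 also did not pass at 5 or more of the 6 genes or without resolving replicate 2 or resolved replicate 2. Of the 15 NF-kB genes 0 passed. Of 6 secreted Wnt antagonists and R-spondins, Dkk3 rose by 1.89 and Rspo3, an R-spondin that strengthens Wnt signals, fell by 1.85.

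Of 10 metalloproteinases and inhibitors 4 rose and 1 fell. Mmp2, gelatinase A, was at 892, 1072 and 1020.4 CPM in suffixes 4-6 and at 2064, 2319 and 2580.2 CPM in suffixes 7-9, a change of 1.23 (SE 0.13, adjusted p = 0.00026) by edgeR, and Mmp11, Mmp13 (collagenase 3) and Timp2 rose by 1.13, 1.58 and 1.59. Timp1, an inhibitor of these enzymes, was at 5741, 5535 and 4582 CPM in suffixes 4-6 and at 2349, 1166 and 1292 CPM in suffixes 7-9, and fell with an edgeR change of -1.70 (SE 0.24, adjusted p = 0.00112). The values of each run lay apart for both genes. Of 16 collagens 4 rose, Col1a2 by 0.51 and Col6a1, Col6a2 and Col6a3 by 1.02, 1.17 and 0.76, and 0 fell. Of 9 small leucine-rich proteoglycans 4 rose, Fmod by 1.52, Aspn by 1.28, Prelp by 0.95 and Kera, and 0 fell. Tenocyte markers in members summed to 947.5, 1036 and 1321 CPM in suffixes 4-6 and to 1823, 2660 and 3572 CPM in suffixes 7-9. In the others they summed to 1672, 2400 and 2035 CPM and to 4113, 3194 and 4616 CPM. Chondrocyte markers summed to 774, 962.5 and 1001 CPM and to 1271, 1339 and 1540 CPM in members, and overlapped between the runs in the others. The part of these markers in the rises was not tested. Has2, which makes hyaluronan, and Tnfaip6, whose product binds it, fell by 1.93 and 0.65, of 7 in their list. C1s1 and Cd55, of 8 complement genes, rose by 0.86 and 1.20, and Aqp1 rose by 1.91. Mmp11, Mmp13, Col1a2, Col6a3, C1s1 and Cd55 did not pass at 5 or more of the 6 genes. Col1a2 also failed to pass with total counts alone and without the filter, and Prelp did not pass without peak replicate 2, resolving replicate 2 or resolved replicate 1, nor Has2 without rest replicate 3, resolving replicate 2 or resolved replicate 2. Tnfaip6 did not pass without resolved replicate 1.

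Of 15 glycolysis genes 8 fell and 0 rose, and the median over the list was -0.77. Gapdh, Pkm, Ldha and Aldoa changed by -0.76, -0.72, -0.97 and -0.77, Eno1 and Pgam1 by -1.03 and -0.88, and the glucose transporter gene Slc2a1 by -1.72. Hk2 was at 153, 157 and 170.3 CPM in suffixes 4-6 and at 68.7, 80.5 and 61.4 CPM in suffixes 7-9, and its edgeR change was -1.15 (SE 0.16, adjusted p = 0.00107). Hk2 passed in every alternative. Of the other 7, Gapdh, Pkm, Aldoa, Eno1, Pgam1 and Slc2a1 did not pass at 5 or more of the 6 genes or without resolved replicate 2, and Gapdh, Pkm, Eno1 and Pgam1 did not without rest replicate 3 or resolved replicate 1, nor Pkm and Eno1 without peak replicate 2. With the replicate block Gapdh, Pkm, Ldha, Aldoa, Eno1 and Pgam1 did not pass. In the other fibroblast-gated cells Hk2 averaged 191 ± 31.2 and 118 ± 24.1 CPM, a change of -0.69. Of 14 dissociation and immediate early genes, which move when tissue is digested, 4 rose: Hspa1a by 0.93, Hspa1b by 0.90, Atf3 by 0.88 and Dusp1 by 1.51, with a list median of 0.57. Hspa1a, Hspa1b and Atf3 did not pass at 5 or more of the 6 genes, and Dusp1 passed in every alternative. Their part in the results was not tested. Of the 10 genes the study names, Timp1, Hk2 and Acta2 passed, Acta2 with an edgeR change of -1.46 (SE 0.21, adjusted p = 0.00133), and 0 rose. Proprotein convertases (3 tested), L1 family genes and neuropilins (5) and CXC chemokines (3) gave 0 calls.

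**Figure D5:**
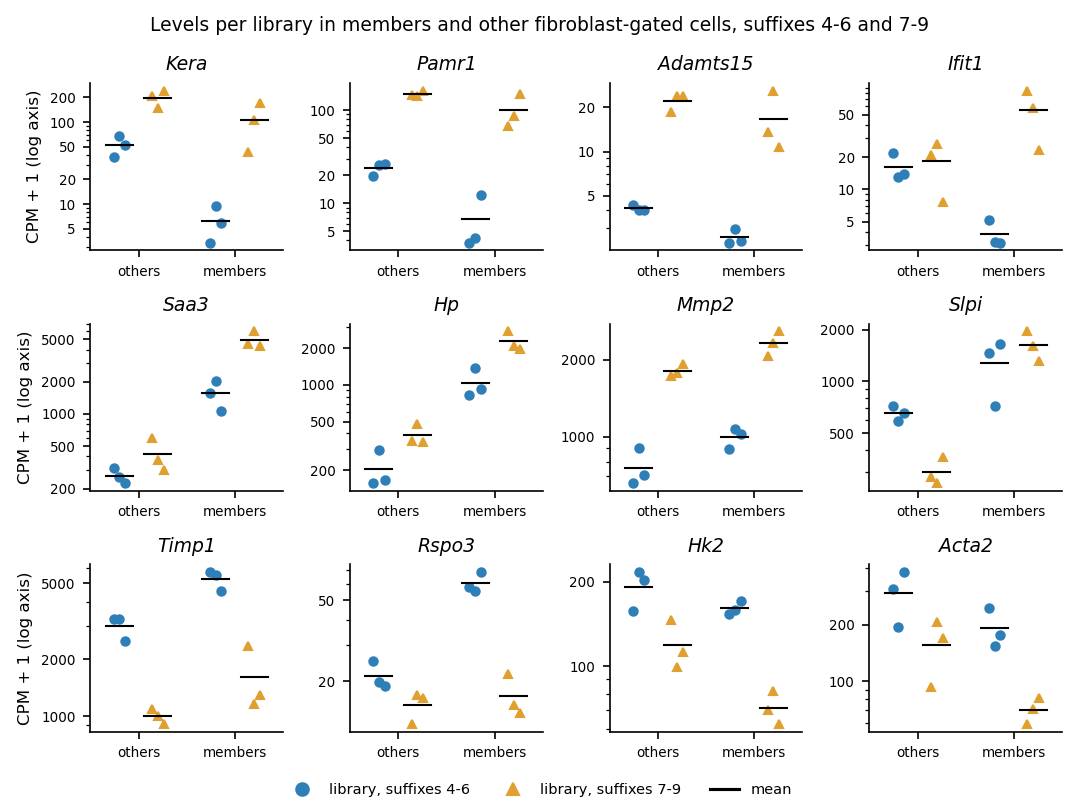
CPM + 1 per library (log axes) of 12 genes in other fibroblast-gated cells and in members, for suffixes 4-6 (circles) and 7-9 (triangles), with bars at the mean. Kera, Pamr1 and Mmp2 are higher in suffixes 7-9 in both kinds of cell and Timp1 is lower in both, while Slpi moves in the others and overlaps in members, and Saa3 is a gene of the rule.

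Most changes between the runs did not differ detectably between members and the other fibroblast-gated cells. The interaction of membership and run, fitted with edgeR with the library as a block, was called for 28 of 11628 genes (0.241%), 22 of them with a more positive change in members. The count was 15 with members at 5 or more of the 6 genes, 145 without the filter on low counts, 54 without rest replicate 2 and 44 without resolving replicate 2. Slpi changed by 0.38 in members and by -1.12 in the others, a difference of 1.52 (SE 0.25, edgeR adjusted p = 0.00824). Serpina3n, a gene of the same serpin cluster as Serpina3g, changed by 0.03 and -1.49, a difference of 1.45 (SE 0.16, edgeR adjusted p = 0.000183). Both genes fell in the others, and their changes in members did not pass the test. Of the 28, 4 passed in every alternative, Serpina3n, Gpx3, Itm2a and Acta1, and Slpi did not pass without resolved replicate 2. Mmp13 was at 183, 229.9 and 311 CPM in suffixes 4-6 and at 487, 744 and 933 CPM in suffixes 7-9 in members and at 291, 657 and 497 CPM in suffixes 4-6 and at 457, 328 and 649 CPM in suffixes 7-9 in the others, a difference of 1.52. This difference did not pass at 5 or more of the 6 genes, without the highest doublet scores or without resolved replicate 2. The interaction used members chosen at unequal depth from the others, which cannot be told apart from membership.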

How the data were processed

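The authors deposited UMI counts per gene and cell for 12 10x libraries as filtered matrices, made with Cell Ranger on mm10 per the labels. Every library has the same median UMIs per cell, and whether counts were brought to a common depth before deposit is not given in the sources used here. The deposited counts were used as they stood: 27998 genes, of which 27645 matched GENCODE M21, in 21042 cells, and 0 columns of per-sample values were left unused. The authors' cell labels were not used here.

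Cells with more than 500 and fewer than 5000 detected genes were kept, fibroblast-gated cells and members were found by the detection rule, and UMIs were summed per library for members and for other fibroblast-gated cells. Sums of at least 10 cells were used, which left 6 libraries. Members, gene lists, runs of suffixes and tests were chosen with earlier results of these data known. Levels are CPM (UMIs of the summed cells scaled to a total of 1000000), not divided by gene length. Sums were tested with edgeR 4.0.16 in R 4.3.3 (TMM scaling, the filter on low counts of filterByExpr, quasi-likelihood test, Benjamini-Hochberg adjustment), leaving out the 13 genes of the rule from counts of calls. A gene was called at adjusted p below 0.05 and a change over 0.5 on the log2 scale, and the interaction at adjusted p below 0.05 alone. The scripts were tested on simulated data. Shares were tested by exact permutation over libraries with scipy 1.17.1, with Wilson intervals at 95%. Doublets were scored with Scrublet in scanpy 1.11.5. Alternatives included DESeq2 1.42.0, other scalings, thinning to 2000 UMIs and leaving out each library.

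Genes were named by rule: the 13 genes of the rule, the 20 higher and 10 lower genes with the largest mean ratio at 50 CPM or more and one direction in every library, the 4 most abundant genes of each list, the 5 largest changes each way in each test across runs or stages, and the genes the study names. Numbered gene models, haemoglobin and immunoglobulin genes were left out. Further list members that passed a test, further marker genes and the genes of the interaction were named after their values were seen. The comparisons with other cells lacking markers of another class, with sublining-marker cells and with members of suffixes 4-6 matched in UMIs were chosen after seeing the data. Promoter sequences are RefSeq's on GRCm38.p6.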

Additional observations from a re-analysis of the deposited data

Results flagged for a closer look

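The change between suffixes 7-9 and 4-6 differed between members and other fibroblast-gated cells, by edgeR's interaction test, in 28 genes. Of these, 15 are given here. They include the largest in each direction without overlap of library ratios between the runs, and some on a gene list or named above. Differences are on the log2 scale, members minus others. Outside the 15, Gpx3 and Itm2a, which passed in every alternative, differed by 1.375 and -0.94.

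In the first group the change was more positive in members. Ifit1, an interferon-induced gene, differed by 3.98, with changes of 4.29 in members and 0.27 in the others. Kera differed by 2.35, Ctla2a by 1.97, the homeobox gene Hoxa7 by 1.74 and Lrrn4cl by 1.72. Slpi differed by 1.52, Mmp13 by 1.52, Serpina3n by 1.45, the phosphatase gene Dusp1 by 0.97 and Lbp by 0.82. At 5 or more of the 6 genes Ifit1, Kera, Ctla2a, Hoxa7, Lrrn4cl, Mmp13 and Lbp did not pass. Dusp1 did not pass without rest replicate 2 or peak replicate 2, nor Slpi without resolved replicate 2.

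In the other group the change was more negative in members. Rgs2, a regulator of G protein signals, differed by -1.61, with changes of 0.47 in members and 2.05 in the others. The Rgs2 difference did not pass at 5 or more of the 6 genes or without rest replicate 3. The skeletal muscle genes Tnnt3, Tnnc2, Acta1 and Ckm differed by -2.17, -3.79, -3.86 and -5.00. Tnnc2 and Ckm were not tested for a change within members, where they ranged from 0 to 5.589 and from 0 to 5.389 CPM. Their differences therefore rest on very low levels in members. At 5 or more of the 6 genes Tnnt3, Tnnc2 and Ckm did not pass. Nor did these genes without rest replicate 3, resolving replicate 2 or resolved replicate 1, while Acta1 passed in every alternative. Skeletal muscle markers in the other fibroblast-gated cells summed to 24.3, 35.1 and 23.4 CPM in suffixes 4-6 and to 190, 64.7 and 66.4 CPM in suffixes 7-9, and in members to 31.3, 12.6 and 8.99 CPM and to 8.32, 12.5 and 9.69 CPM. Their part in the difference was not tested.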

How the results depend on the processing

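For the share of members, the test between runs stayed below 0.05 and that between stages above it in every alternative, with exact permutation p of 0.00026 to 0.000649 and 0.548 to 0.947 when each library was left out. The mean share of suffixes 4-6 moved from 26.2% to 36.6% at 3 or more of the 6 genes, 14.7% at 5 or more and 7.01% after thinning, and that of suffixes 7-9 from 2.53% to 8.49%, 0.957% and 0.443% under the same settings, 2.36% without the highest doublet scores and 2.14% of all kept cells. The 804 genes called between runs became 186 at 5 or more of the 6 genes, where rest replicate 3 had under 10 members, 1309 without the filter on low counts and 207 with the replicate block, and 343 to 884 without each library. Mitochondrial, doublet, scaling, DESeq2 and UMI-matched alternatives gave 596 to 809. Genes called for peak against rest were 3 at 5 or more genes, 14 without the filter, 1 by DESeq2 and 9 with run as a block, for resolving 5 without the filter, and for resolved 5, 10, 1 and 9 under the same settings as peak, with 0 to 4, 0 to 4 and 0 to 8 without each library. The 28 interaction calls became 15 at 5 or more genes, 145 without the filter and 20 to 54 without each library (54 without rest replicate 2 and 44 without resolving replicate 2). Of genes higher in members, 33 became 65 against others without markers of another class, 58 after thinning and 22 to 37 without each library, and 112 lower genes became 49 against others matched in UMIs, 210 after thinning and 105 to 130. Interaction Isg15 reversed to -0.17 at 5 or more genes. Of 70 named genes called between runs, 35 were not called at 5 or more genes, 34 with the replicate block and 34 when one or another library was left out, and 26 were called wherever they were tested. Of the 28 interaction calls, 22 were lost at 5 or more genes and 19 when one or another library was left out. Of 159 named ratios of members over others, 67 moved by more than their SD between libraries against others without markers of another class, 56 after thinning, 40 against others matched in UMIs, 35 against cells with sublining markers, 5 at 5 or more genes and 0 without the highest doublet scores. Ratios reversed for Nfasc (-0.58) and Htra4 (0.059) after thinning, for Acta2 (0.47), Fmod (1.89), Cxcl1 (-0.022), Kera (1.80), Aspn (0.11) and Col2a1 (0.51) against others without markers of another class, and for Hk2 (0.016), Timp2 (0.066), Gapdh (-0.15), Pkm (-0.25) and Apod (0.21) against others matched in UMIs. Of these, Acta2, Fmod, Kera and Col2a1 are markers by which those others, but not the members, were limited, and the cause was not tested elsewhere.

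Replicate numbers do not pair these libraries: same-number correlations of deviations were 0.08, -0.134, -0.068 and 0.119, the runs share only number 2, and a replicate block for the stages could not be fitted. Comparisons of suffixes 1-3 or 10-12 with other runs were not run, with under 10 members a library. Depth limits low genes, as 38, 57 and 27 members make up suffixes 7-9.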
